A study of Homo sapiens with 8 samples.

Results

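In total, 35 genes of glycolysis and of the response to low oxygen were followed in RNA-seq of CTCF AID2 SEM cells. They were chosen by name with earlier results of these data known, so counts of calls among them are a description. Matched to the gene symbols of the deposited table, all 35 were found among its 60754 entries. Of these, 33 reached a TPM of 1 in some library and were tested, TPM being the abundance of a transcript relative to all transcripts of a library. SEM cells are a line of human B-cell acute lymphoblastic leukemia with a KMT2A rearrangement. All 8 libraries came from SEM clones in which both CTCF alleles end in a miniAID-mClover3 tag and which carry a modified OsTIR1 receptor with a Zeocin resistance gene, driven by the MND promoter of a lentiviral cassette. Clones C17.2 and C3.2, each grown from sorted single cells, had 2 libraries of untreated parental cells and 2 libraries of resistant cells apiece. Resistant cells had been kept in 1 µM 5-Ph-IAA, the auxin analog that triggers degradation of the tagged protein, and 100 µg/ml Zeocin until day 36, and the drugs had then been removed. Resistant C17.2 cells are described as making a truncated CTCF, and resistant C3.2 cells as carrying a mutation in the miniAID tag. A clone is 1 line, so what belongs to a clone and what belongs to its route to resistance cannot be told apart. Parental cells were untreated, so within a clone resistance cannot be told apart from the long treatment with 5-Ph-IAA and Zeocin or from its removal. No label names a change of oxygen or of glucose.

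Glycolysis splits glucose into pyruvate in the cytosol, and lactate dehydrogenase turns pyruvate into lactate when it is not passed on to mitochondria. Hypoxia-inducible factor (HIF) joins both sets of genes: its alpha subunit is marked for degradation by oxygen-dependent prolyl hydroxylases, and when oxygen is short it accumulates and binds hypoxia response elements, whose core reads ACGTG or GCGTG. Most glycolytic enzymes have HIF target genes among their isoenzymes, and leukemia cells are known for high glycolytic flux. The list therefore holds glucose and lactate transporters (4 genes), enzymes from hexokinase to lactate dehydrogenase (17), regulators of flux (4), oxygen sensing (3) and other HIF targets (7).

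Promoters of these genes are shown first because HIF acts through hypoxia response elements, although its binding was not measured here. The RefSeq table (GRCh38.p14) held windows for 30 of the 35 members, 57 windows in all, and none for *SLC2A3*, *SLC16A1*, *BNIP3L*, *NDRG1* and *VEGFA*. In the 250 bases before a start, ACGTG on either strand was present in 22 of the 57 windows (38.6%), against 18.5% of the 35116 windows of all genes. GCGTG was present in 18 windows (31.6%), against 32.2% of all windows. CACGTG, the E-box, which holds ACGTG on both strands and so counts among its matches, was present in 14.0% of member windows and 6.34% of all windows. Windows of 1 gene overlap in part, and these matches are letters in a window, not binding. The stretches below leave out every annotated exon base (Gencode release 44), and capitals mark ACGTG or GCGTG on either strand. The first 3 belong to enzymes and hold several copies, and the last belongs to the glucose transporter GLUT1, whose window held none. They were picked by name, and the RNA of each, GLUT1 included, was called higher in resistant C17.2 cells. ACGTG or GCGTG was present in 56.5% of the windows of members called higher in C17.2. It was present in 57.9% of all member windows and 43.2% of the windows of all genes.
LDHA, chr11:18394313-18394559, forward strand: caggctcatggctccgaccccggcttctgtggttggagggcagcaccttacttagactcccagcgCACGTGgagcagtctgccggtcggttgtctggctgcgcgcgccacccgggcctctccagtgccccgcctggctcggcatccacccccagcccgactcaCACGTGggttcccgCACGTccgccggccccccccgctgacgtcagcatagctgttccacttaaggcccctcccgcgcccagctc
ALDOC, chr17:28576949-28577145, reverse strand: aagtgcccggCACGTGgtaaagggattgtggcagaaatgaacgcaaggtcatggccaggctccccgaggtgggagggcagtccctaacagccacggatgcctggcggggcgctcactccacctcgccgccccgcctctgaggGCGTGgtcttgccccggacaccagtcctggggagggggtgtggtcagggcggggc
PGK1, chrX:78103998-78104247, forward strand: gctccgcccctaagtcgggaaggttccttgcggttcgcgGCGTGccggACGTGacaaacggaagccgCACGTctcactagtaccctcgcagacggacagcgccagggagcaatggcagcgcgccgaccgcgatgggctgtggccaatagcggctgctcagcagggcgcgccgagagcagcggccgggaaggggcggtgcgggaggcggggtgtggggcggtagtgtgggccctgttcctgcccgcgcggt
SLC2A1, chr1:42958894-42959048, reverse strand: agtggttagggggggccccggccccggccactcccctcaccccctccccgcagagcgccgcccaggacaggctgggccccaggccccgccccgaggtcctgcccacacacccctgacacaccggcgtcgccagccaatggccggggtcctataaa

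The measure throughout is scaled TPM: the TPM of the authors, divided by a factor per library (0.893 to 1.16) from a trimmed mean of log2 ratios. TPM sums to the same total in each library, so depth is unknown and counting error cannot be stated. Small nuclear RNA took 31.2% to 37.6% of the TPM and protein-coding genes 36.0% to 43.3%, and Pearson's r across genes, which are not independent replicates, was 0.968 to 0.979 within a group. *CTCF* itself was higher in resistant cells of both clones, from 33.7 and 34.1 to 45.5 and 47.4 scaled TPM in C17.2 and from 36.0 and 34.96 to 45.3 and 44.8 in C3.2. Of 12 B-lineage markers, 10 reached 1 TPM, and their summed level was 978 to 984 scaled TPM in C17.2 parental libraries, 817 to 840 in resistant ones, 1050.2 to 1077 in C3.2 parental libraries and 891 to 901 in resistant ones. *RAG1* and *DNTT* stayed under 1 TPM. Of 15 markers of T cells, myeloid, erythroid and NK cells, 11 stayed under 1 TPM and *CD3D* was listed at 0 in every library, with summed levels of 48.7 to 64.8 scaled TPM that came mostly from *TRAC*. Of the 10 tested B-lineage markers, 5 were called lower in resistant C17.2 cells, where 13.9% of all genes tested were called lower. In C3.2, 4 were called lower and 1 higher (*PAX5*, from 130.1 and 134.7 to 157 and 163 scaled TPM), where 6.91% and 4.43% of all genes were, and the part of these markers in the results below was not tested. In bulk RNA, fewer cells that express a gene and less of its RNA per cell cannot be told apart.

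Most of the lower glycolytic pathway was higher in resistant C17.2 cells. Of the 17 enzymes, 11 were called higher, 2 lower and 4 were not called, at an adjusted p under 0.05 from limma with Benjamini-Hochberg adjustment over 15614 genes. The median log2 fold change of the enzymes was 0.40, against 0 for all genes tested. Over the 33 tested members, 19 were called (13 higher, 6 lower), where 27.3% of all genes tested were called, 13.4% higher and 13.9% lower. The libraries of the 2 groups did not overlap for 29 of the 33 members and for all 17 enzymes, where 66.0% of all genes tested had groups that did not overlap (33.2% higher, 32.8% lower). The median over the members was 0.12. On TPM as deposited, without scaling between libraries, 17 members were called higher and 3 lower, and the median of all genes moved to 0.13. Under that setting 3849 of the 15614 genes tested were called higher and 1279 lower. Fold changes are differences of log2(scaled TPM + 1), which understate the change of genes with low TPM. Nothing in the labels says that libraries of a group came from separate cultures, so the p-values measure the spread between these libraries, which may be technical. With 2 libraries against 2, an exact permutation test cannot give a p below 0.333, and the calls rest on the spread that limma shares across groups and genes.

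**Figure D1:**
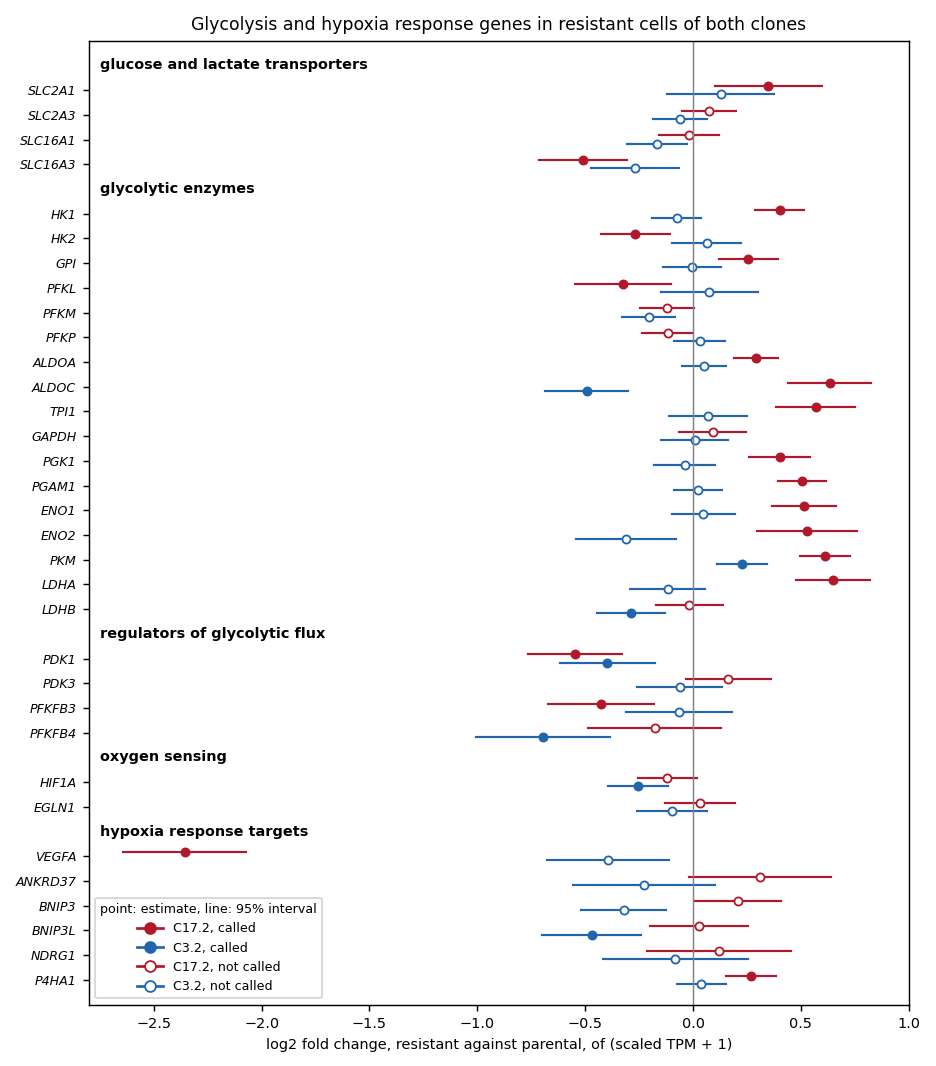
Log2 fold change of (scaled TPM + 1), resistant against parental, on the horizontal axis for the 33 tested members, ordered by role, in C17.2 (red) and C3.2 (blue). Points are limma estimates, lines are 95% confidence intervals and filled points have an adjusted p under 0.05. Red points of the enzymes from *ALDOA* down to *LDHA* lie right of 0, with an interval that crosses 0 for *GAPDH*, whereas most blue points lie near 0, and *VEGFA* in C17.2 stands apart at -2.36.

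*LDHA* (ENSG00000134333.14, chr11:18394560-18408425 on GRCh38), which encodes the muscle-type subunit of lactate dehydrogenase that favors lactate, had the largest rise among the members in log2(scaled TPM + 1). Without the added 1, the means of *ENO2* (1.59 to 2.73 scaled TPM) and *ALDOC* (9.74 to 15.6) rose by larger factors. *LDHA* measured 262 and 256 scaled TPM in C17.2 parental libraries and 394 and 418 in resistant libraries. Both resistant libraries were above both parental ones, with a log2 fold change of 0.65 (limma adjusted p = 0.00146, 95% interval 0.48 to 0.82). *LDHB* (ENSG00000111716.12), the heart-type subunit, measured 294 and 289 in parental and 287 and 288 in resistant libraries, a log2 fold change of -0.02 that did not pass the test. The ratio of *LDHA* to *LDHB* TPM, which no scaling affects, was therefore 0.890 and 0.888 in parental libraries and 1.37 and 1.45 in resistant libraries of this clone. An exact two-sided permutation test of this ratio gave p = 0.333, the smallest p this design allows.

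*ALDOC* (ENSG00000109107.14), the brain-type aldolase, followed with a log2 fold change of 0.63 (standard error 0.080, limma adjusted p = 0.0024). It rose from 10.6 and 8.89 scaled TPM to 15.6 in both resistant libraries. *PKM* (ENSG00000067225.18), pyruvate kinase, which makes pyruvate and ATP in the last step, rose from 448 and 463 to 693 and 701 scaled TPM. Its log2 fold change was 0.61 (standard error 0.048, limma adjusted p = 0.000418). *TPI1* (ENSG00000111669.15), which interconverts the triose phosphates, measured 227 and 224 in parental and 341 and 328 in resistant libraries, a log2 fold change of 0.57 (limma adjusted p = 0.00295). In all 3 genes the groups did not overlap, as in 66.0% of all genes tested. The pseudogene *TPI1P1* had 9.06 to 18.1 TPM over the 8 libraries, and the copies of *TPI1* together took 4.05% to 5.62% of the TPM of the gene and its copies.

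The steps between were higher as well. *ENO1* (ENSG00000074800.16), the main enolase, rose from 263 and 275 to 378 and 389.7 scaled TPM, and *ENO2* (ENSG00000111674.9), the neuronal enolase, from 1.68 and 1.4995 to 2.67 and 2.79. Their log2 fold changes were 0.51 and 0.53 (limma adjusted p = 0.00198 and 0.00927). *PGAM1* (ENSG00000171314.9), phosphoglycerate mutase, rose from 51.0 and 52.7 to 75.7 and 72.4, a log2 fold change of 0.51 (limma adjusted p = 0.000703). Copies of *PGAM1*, with *PGAM4* and *PGAM1P10* above 1 TPM, held 6.57% to 9.54% of the TPM of the gene and its copies. *PGK1* (ENSG00000102144.15), phosphoglycerate kinase, the first step that yields ATP, rose from 77.4 and 86.9 to 108 and 109.8, a log2 fold change of 0.40 (limma adjusted p = 0.00398). Each of these genes had its resistant libraries above its parental ones, as did 33.2% of all genes tested. *GAPDH* (ENSG00000111640.15), the step in the middle of this row and the most abundant of the 17, did not pass the test: it measured 1359 and 1371 in parental and 1480.1 and 1429.7 in resistant libraries, a log2 fold change of 0.09 with a 95% interval of -0.06 to 0.25. On TPM as deposited it was called higher, at 0.25 (limma adjusted p = 0.0349), and after quantile normalization it was at 0.24 and not called (limma adjusted p = 0.0861). The share of *GAPDH* in the summed TPM of the 17 enzymes was 38.4% and 38.3% in parental and 33.5% and 32.7% in resistant libraries.

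In the upper part of the pathway, the hexokinases *HK1* and *HK2* moved in opposite directions. *HK1* (ENSG00000156515.23), the hexokinase of most tissues, rose from 9.92 and 10.3 to 13.7 scaled TPM in both resistant libraries, a log2 fold change of 0.40 (limma adjusted p = 0.00182). *HK2* (ENSG00000159399.9), the hexokinase that growth signals and HIF induce, fell from 17.9 and 18.2 to 14.1 and 15.5, a log2 fold change of -0.27 (limma adjusted p = 0.0268). The ratio of *HK1* to *HK2* TPM thus went from 0.554 and 0.567 to 0.967 and 0.882. *PFKL* (ENSG00000141959.17), the liver-type phosphofructokinase of the committed step, fell from 44.6 and 44.3 to 39.1 and 31.8, a log2 fold change of -0.33 (limma adjusted p = 0.044). *PFKM* and *PFKP*, the muscle-type and platelet-type enzymes, had log2 fold changes of -0.12 each that did not pass the test. *ALDOA* (ENSG00000149925.20), the main aldolase, rose from 365 and 374 to 459 and 446 (log2 fold change 0.29, limma adjusted p = 0.00391). It shares 42.8% of its annotated exon bases with a same-strand protein-coding gene, ENSG00000285043, listed at 2.73 to 3.97 TPM. *GPI* (ENSG00000105220.17), glucose-6-phosphate isomerase, rose from 57.9 and 57.4 to 71.9 and 66.4 (log2 fold change 0.26, limma adjusted p = 0.0176). Resistant and parental libraries did not overlap for any of these genes, where 66.0% of all genes tested had groups that did not overlap.

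**Figure D2:**
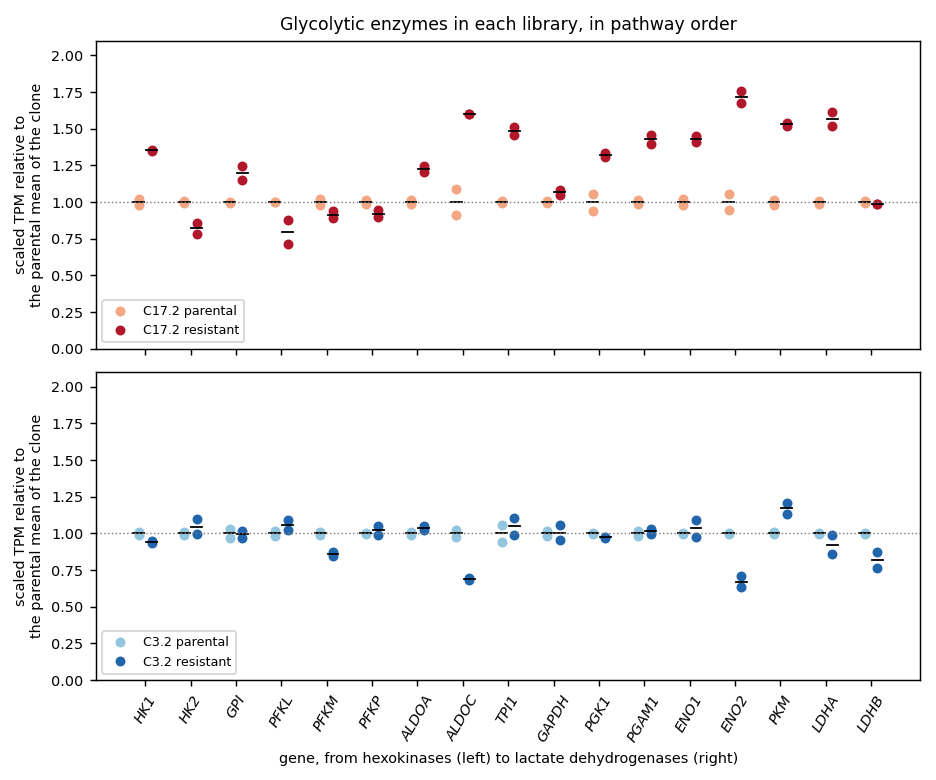
Scaled TPM of the 17 glycolytic enzymes in each library, divided by the mean of the 2 parental libraries of the same clone (vertical axis, no unit), with the genes in pathway order and black bars at the group means. In C17.2 both resistant libraries lie above both parental ones for 12 enzymes (*GAPDH* included, by the least) and below them for the others, where 33.2% of all genes tested lay above and 32.8% below, and in C3.2 most points lie near 1, with *ALDOC* and *ENO2* lowest.

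Transporters and regulators went both ways in C17.2. *SLC2A1* (ENSG00000117394.22), which encodes the glucose transporter GLUT1, rose from 16.4 and 15.3 to 20.0 and 21.0 scaled TPM, a log2 fold change of 0.35 that passed the threshold narrowly (limma adjusted p = 0.0494). *SLC16A3* (ENSG00000141526.16), which encodes the lactate exporter MCT4, fell from 3.15 and 3.40 to 1.94 and 2.06, a log2 fold change of -0.51 (limma adjusted p = 0.00646). This gene overlaps *CSNK1D* on the opposite strand over 5.22% of its exon bases, *CSNK1D* had 33.4 to 54.6 TPM, and the strand used in counting is not given in the sources used here. *SLC2A3* and *SLC16A1*, which encode GLUT3 and MCT1, had log2 fold changes of 0.07 and -0.02 that did not pass the test.

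*PDK1* (ENSG00000152256.13), the kinase that shuts pyruvate dehydrogenase and so keeps pyruvate out of mitochondria, fell from 10.7 and 10.3 to 6.46 and 7.35 scaled TPM (log2 fold change -0.55, limma adjusted p = 0.00667). *PFKFB3* (ENSG00000170525.21), which makes the activator of phosphofructokinase, fell from 9.81 and 8.34 to 7.06 and 5.92 (log2 fold change -0.43, limma adjusted p = 0.0243). *PDK3* and *PFKFB4* had log2 fold changes of 0.16 and -0.18 and did not pass the test. Both regulators that fell are HIF targets in many cells, as are *LDHA* and *PGK1*, which rose.

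Among the other HIF targets, *VEGFA* (ENSG00000112715.21, chr6:43770184-43786487 on GRCh38), the vascular endothelial growth factor, had the largest change of all members. It measured 6.91 and 6.49 scaled TPM in C17.2 parental libraries and 0.446 and 0.562 in resistant libraries, a log2 fold change of -2.36. *VEGFA* passed the filter on low values only through the parental libraries of this clone, since every other library was below 1 TPM as deposited, so its differences from those libraries are given as a description, with no test, although the counts of calls include it. *P4HA1* (ENSG00000122884.12), a prolyl hydroxylase of collagen, rose from 11.9 and 11.6 to 14.6 and 14.1 (log2 fold change 0.27, limma adjusted p = 0.00815). *ANKRD37*, *BNIP3*, *BNIP3L* and *NDRG1* had log2 fold changes of 0.03 to 0.31 that did not pass the test. *ADM* stayed at or below 0.0755 scaled TPM in every library and was not tested.

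Oxygen sensing itself gave no call in this clone. *HIF1A* (ENSG00000100644.17), the oxygen-regulated subunit, measured 70.5 and 66.8 scaled TPM in parental and 63.4 and 62.7 in resistant libraries, a log2 fold change of -0.12 with a 95% interval of -0.26 to 0.02, and *EGLN1*, the main prolyl hydroxylase that marks it, had a log2 fold change of 0.03 (0 of 2 tested genes called by limma, and 0 at an unadjusted p under 0.05). *EGLN3*, a hydroxylase that is itself a HIF target, stayed at or below 0.414 scaled TPM and was not tested. RNA says nothing of the stability of the HIF1A protein, which was not analysed here.

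Some C17.2 calls did not hold when a library was left out. *PDK1* lost its call without parental replicate 1 (adjusted p = 0.0576). *GPI* lost it without either parental library or without resistant replicate 1 (limma adjusted p up to 0.0873), and *PFKFB3* without parental replicate 1, resistant replicate 2 or either C3.2 parental library (up to 0.136). *HK2* kept its call in 3 of the 8 fits that left out a library (adjusted p up to 0.122), *SLC2A1* in 2 of 8 (up to 0.216) and *PFKL* in 1 of 8 (up to 0.173). *HK2* kept it only without C17.2 resistant replicate 2 or a C3.2 resistant library, *SLC2A1* only without a C3.2 resistant library and *PFKL* only without C17.2 resistant replicate 1. *LDHA*, *ALDOC*, *PKM*, *TPI1*, *ENO1*, *ENO2*, *PGAM1*, *HK1*, *PGK1*, *ALDOA*, *P4HA1* and *SLC16A3* kept their calls in all 8.

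In C3.2, few of the enzymes were called. Of the 33 tested members, 7 were called (1 higher, 6 lower), where 11.3% of all genes tested were called, 4.43% higher and 6.91% lower. The median log2 fold change was -0.08 over the members and 0.01 over the 17 enzymes, of which 3 were called. Of the 4 transporters, 0 were called by limma and 2 had an unadjusted p under 0.05. *PKM* rose from 569 and 576 to 650.3 and 691 scaled TPM, a log2 fold change of 0.23 (limma adjusted p = 0.0318). *ALDOC* fell here, from 14.4 and 15.1 to 10.1 and 10.3, a log2 fold change of -0.49 (limma adjusted p = 0.0152). *LDHB* fell from 396 and 394 to 303 and 346 (log2 fold change -0.29, limma adjusted p = 0.0406), with the resistant libraries farther apart than the parental ones.

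The other calls of C3.2 were falls as well. *PFKFB4* (ENSG00000114268.12), a testis-type isoform of the enzyme that *PFKFB3* also encodes and a HIF target, fell from 2.40 and 2.71 to 1.00 and 1.39 scaled TPM, the largest change among the members in this clone (log2 fold change -0.70, limma adjusted p = 0.0223). *BNIP3L* (ENSG00000104765.16), a receptor for the removal of mitochondria, fell from 25.9 and 27.8 to 18.3 and 19.9 (log2 fold change -0.47, limma adjusted p = 0.0281). *PDK1* fell from 9.54 and 8.19 to 6.72 and 6.24 (log2 fold change -0.40, limma adjusted p = 0.0416), and was the member called lower in both clones. *HIF1A* fell from 53.1 and 51.2 to 45.6 and 41.6 (log2 fold change -0.26, limma adjusted p = 0.0384). Over the 33 tested members, the groups did not overlap for 22, where 55.8% of all genes tested had groups that did not overlap (27.7% higher, 28.2% lower). The 7 called genes were among the 22, which adds little to their calls. *VEGFA* measured 0.896 and 1.02 in parental and 0.389 and 0.593 in resistant libraries, a log2 fold change of -0.39 that did not pass the test (limma adjusted p = 0.0851).

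Most of these calls were lost when a library was left out. With the 4 libraries of the clone fitted alone, 0 of the members were called by limma. That fit called 77 of all 15614 genes tested, against 1770 in the joint fit. Without either C3.2 parental library, calls over all genes fell as well. *ALDOC* kept its call in 5 of the 8 fits that left out a library (adjusted p up to 0.0980), *PFKFB4* in 3 (up to 0.115), *BNIP3L* and *LDHB* in 2 each (up to 0.151 and 0.172), *PKM* and *HIF1A* in 1 each (up to 0.149 and 0.179) and *PDK1* in 0 (0.0624 to 0.189). Each of the 7 calls was lost without C3.2 parental replicate 1 and without C3.2 parental replicate 2.

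Whether the clones differed was tested by the contrast of their changes (C17.2 minus C3.2). Of the 33 tested members, 11 were called, where 9.96% of all genes tested were called, 4.94% higher and 5.02% lower. Of the 17 enzymes 9 were called, all with the larger value in C17.2: *ALDOC* at 1.13 (limma adjusted p = 0.00337), *ENO2* at 0.84, *LDHA* at 0.77, *TPI1* at 0.50, *PGAM1* and *HK1* at 0.48 each, *ENO1* at 0.47, *PGK1* at 0.44 and *PKM* at 0.38 on the log2 scale. *ALDOC* was called in opposite directions in the clones. *VEGFA* was lower by 1.96 in this contrast, given as a description since its high group let it pass the filter, and *BNIP3* was at 0.53 (limma adjusted p = 0.0383), with log2 fold changes of 0.21 in C17.2 and -0.32 in C3.2 that did not pass the test. *GAPDH* and *ALDOA* had differences of 0.08 and 0.24 (limma adjusted p = 0.604 and 0.0557). The transporters and the regulators of flux had 0 of 4 called each by limma, with 0 and 2 at an unadjusted p under 0.05. *HK1*, *ALDOC* and *PGAM1* kept this call whichever library was left out. *ENO2* lost it without either C3.2 parental library (adjusted p up to 0.0541), and *LDHA* without any 1 of the 4 parental libraries (up to 0.0562). *PGK1* kept it in 3 of 8 fits (up to 0.0975), *ENO1* and *PKM* in 2 of 8 (up to 0.0988 and 0.0825), *TPI1* in 1 of 8 (up to 0.131) and *BNIP3* in 0 (0.0601 to 0.126).

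Summed over the 17 enzymes, scaled TPM was 3535 and 3580.1 in C17.2 parental libraries and 4417 and 4373 in resistant libraries, a ratio of means of 1.24. In C3.2 it was 4439 and 4547 in parental and 4405 and 4674 in resistant libraries, a ratio of 1.01, and these groups overlapped. An exact two-sided permutation test gave p = 0.333 in C17.2, the smallest possible, and p = 1.0 in C3.2. As a share of all deposited TPM, the enzymes took 0.371% and 0.353% in C17.2 parental libraries, 0.495% and 0.505% in resistant ones, 0.396% and 0.420% in C3.2 parental libraries and 0.430% and 0.433% in resistant ones. The ratio of *LDHA* to *LDHB* was 1.02 and 1.04 in C3.2 parental libraries and 1.32 and 1.01 in resistant ones, which overlapped. The ratio of *HK1* to *HK2* was 0.505 and 0.506 in C3.2 parental and 0.438 and 0.476 in resistant libraries, below the parental values, whereas in C17.2 it was above them.

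**Figure D3:**
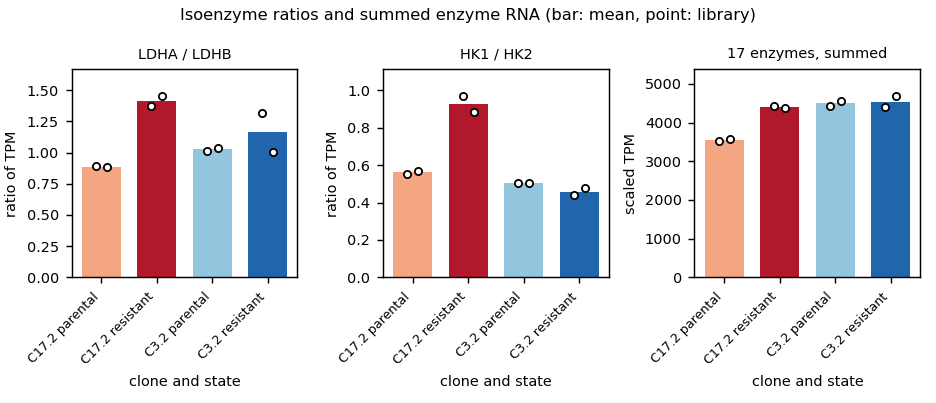
Ratio of *LDHA* to *LDHB* TPM (left), ratio of *HK1* to *HK2* TPM (middle) and summed scaled TPM of the 17 enzymes (right) on vertical axes that start at 0, for the 4 groups of clone and state on the horizontal axis. Bars are means of 2 libraries and points are libraries. C17.2 parental libraries have the lowest enzyme sum (3535 and 3580.1), and resistant libraries of this clone (4417 and 4373) lie near the lowest C3.2 library (4405).

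The parental groups differed before any treatment. This contrast uses the C17.2 parental libraries that also serve as the reference of the C17.2 comparison, and the numbers that open the sample titles form a separate run for each clone, so clone and whatever those numbers stand for cannot be told apart in it. In C3.2 parental against C17.2 parental cells, 18 of the 33 members were called (16 higher, 2 lower), where 22.5% of all genes tested were called, 11.9% higher and 10.6% lower. On TPM as deposited the members' split was 8 higher and 6 lower, and the median of all genes was -0.14. Over all 15614 genes tested, that setting called 742 higher and 3156 lower. Of the 17 enzymes 13 were called, all higher in C3.2, with *PGAM1* at 0.70, *ENO1* at 0.66, *LDHA* and *PGK1* at 0.64 each and *ALDOC* at 0.56 on the log2 scale (limma adjusted p between 0.000363 and 0.00507). *HIF1A* was lower by 0.39 on the log2 scale (limma adjusted p = 0.00551), and *VEGFA*, as a description, by 1.98. Side by side, *LDHA* was lowest in C17.2 parental libraries (262 and 256 scaled TPM), and the other 6 libraries lay between 348 and 418. *PGAM1* did not show this: resistant C17.2 libraries (75.7 and 72.4) stayed below all 4 C3.2 libraries (83.2 to 87.7). *VEGFA* exceeded 1.02 scaled TPM in the C17.2 parental libraries and nowhere else.

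*BNIP3*, a mitochondrial death and mitophagy protein of the HIF response, has copies that limit its reading. The pseudogene *BNIP3P41* had 28.67 and 25.8 TPM in C17.2 parental libraries, 10.8 and 9.9 in resistant ones, 16.41 and 20.07 in C3.2 parental libraries and 7.14 and 9.0 in resistant ones, above *BNIP3* itself (4.40 to 6.92 scaled TPM). It fell in both clones, by 1.46 and 1.154 on the log2 scale (limma adjusted p = 0.000773 and 0.00583). All copies together took 63.7% to 86.4% of the TPM of the gene and its copies, so the value of *BNIP3* depends on how reads were divided among them. For *ANKRD37*, 40.3% of the exon bases lie opposite those of *UFSP2*, which had 3.38 to 6.2 TPM against 0.829 to 2.31 scaled TPM for *ANKRD37*.

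Other genes of these pathways were counted from lists that hold no member. These lists too were chosen with earlier results of these data known, so their counts are a description. The counts are read against the 27.3% of all genes tested that were called in C17.2 (13.4% higher, 13.9% lower) and the 11.3% in C3.2 (4.43% higher, 6.91% lower). Of 42 further glycolytic and pyruvate genes, 21 were tested and 6 were called in C17.2 (5 higher, 1 lower) and 4 in C3.2 (3 higher, 1 lower), in C17.2 a share near that of all genes. *BPGM*, which diverts a glycolytic intermediate to 2,3-bisphosphoglycerate, rose in both clones, from 4.60 and 4.86 to 12.1 and 12.2 scaled TPM in C17.2 and from 5.49 and 5.94 to 8.66 and 8.28 in C3.2. Its log2 fold changes were 1.199 and 0.50 (limma adjusted p = 8.51e-05 and 0.00658). *TIGAR*, a phosphatase that p53 induces and that slows glycolysis, rose by 0.83 and 0.58 (limma adjusted p = 0.00123 and 0.012), and *MPC1*, a subunit of the mitochondrial pyruvate carrier, by 0.35 and 0.32 (limma adjusted p = 0.0165 and 0.0475). *MPC2*, its partner, had -0.06 in C17.2, which did not pass the test, and fell by 0.44 in C3.2 (limma adjusted p = 0.0122). *DLAT*, a subunit of pyruvate dehydrogenase, fell by 0.38 in C17.2 (limma adjusted p = 0.00547).

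Of 53 further hypoxia-response genes, 38 were tested, and 18 were called in C17.2 (7 higher, 11 lower) and 12 in C3.2 (2 higher, 10 lower), where over all genes 13.4% were higher and 13.9% lower in C17.2 and 4.43% and 6.91% in C3.2. *STC2*, a secreted stanniocalcin, fell from 39.0 and 40.0 to 1.31 and 1.60 scaled TPM in C17.2 and from 22.1 and 20.8 to 1.27 and 1.80 in C3.2. Its log2 fold changes of -4.05 and -3.15 exceeded those of every member (limma adjusted p = 1.18e-05 and 0.000139). *VLDLR*, a lipoprotein receptor, fell from 20.9 and 20.6 to 2.47 and 2.68 and from 7.13 and 7.38 to 1.29 and 1.32. *STC2*, *VLDLR* and *VEGFA* are also known targets of ATF4, the transcription factor of the integrated stress response. *AK4*, a mitochondrial adenylate kinase, fell by 1.59 and 1.78, and *NDUFA4L2*, a mitochondrial protein that HIF induces, had log2 fold changes of -2.31 in C17.2 and -0.59 in C3.2. *NDUFA4L2* reached 1 TPM in parental libraries and in no resistant one, so these are a description, with no test. The count of genes called lower in C17.2 nevertheless includes it. In the other direction, *PLOD1*, a lysyl hydroxylase of collagen, rose by 0.70 and 0.41 (limma adjusted p = 0.00108 and 0.0181), *SLC6A6*, the taurine transporter, by 0.76 and *FAM162A*, a mitochondrial HIF target, by 0.73 in C17.2, and *KLF6*, a zinc finger factor, by 0.48 in C3.2.

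**Figure D4:**
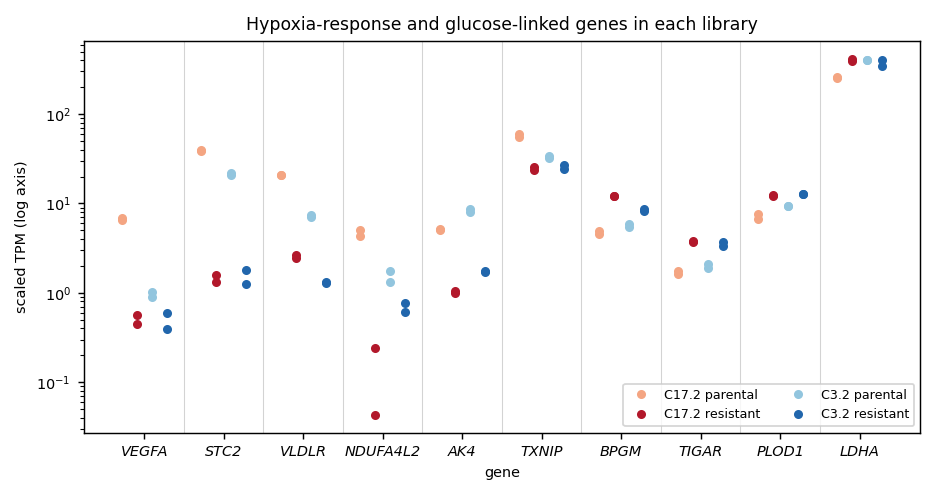
Scaled TPM in each of the 8 libraries (vertical log axis) of *VEGFA* and *LDHA* and of 8 named genes of the other lists, with colors for clone and state. *STC2* and *VLDLR* are lower in resistant cells of both clones, *BPGM*, *TIGAR* and *PLOD1* are higher in both, and *VEGFA* stands high in the C17.2 parental libraries.

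Of 16 genes of the HIF machinery 14 were tested, and 5 were called in C17.2 (4 higher, 1 lower; 27.3% of all genes were called) and 0 in C3.2 by limma, where 3 had an unadjusted p under 0.05 and 11.3% of all genes were called. *EPAS1*, which encodes the HIF2 alpha subunit, rose from 1.38 and 1.22 to 2.81 and 3.75 scaled TPM in C17.2 (log2 fold change 0.89, limma adjusted p = 0.00702) and had -0.05 in C3.2. Its call was lost without C17.2 parental replicate 2 (limma adjusted p = 0.0517), and that of *FAM162A* without that library or either C17.2 resistant library (up to 0.0779). *ELOC* and *ELOB*, elongins of the VHL complex that ubiquitinates HIF alpha subunits, rose by 0.45 and 0.34 in C17.2 (limma adjusted p = 0.00351 and 0.0091), and *RACK1*, a ribosomal protein that also promotes HIF1A turnover, fell by 0.35 (limma adjusted p = 0.00689), a fall that did not pass the test on TPM as deposited (-0.18, limma adjusted p = 0.0996) or after quantile normalization (-0.05, limma adjusted p = 0.565), nor without either C17.2 parental library (up to 0.0513).

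Glucose-sensing genes gave 2 calls in C17.2 and 1 in C3.2 among 5 tested, all lower, where 13.9% and 6.91% of all genes were called lower. *TXNIP*, which the glucose sensor MondoA induces and which restrains glucose uptake, fell from 55.7 and 59.1 to 25.7 and 23.8 scaled TPM in C17.2 and from 32.5 and 33.6 to 24.0 and 27.0 in C3.2, by 1.18 and 0.36 on the log2 scale (limma adjusted p = 0.00016 and 0.0265). *ARRDC4*, its relative, fell by 0.54 in C17.2 (limma adjusted p = 0.0213). In the pentose phosphate pathway, which branches from glucose 6-phosphate, 4 of 6 tested genes were called in C17.2 (3 higher, 1 lower) and 1 in C3.2, where 27.3% and 11.3% of all genes were. *TALDO1* and *RPIA* rose in C17.2, by 0.38 and 0.22, and *TKT*, transketolase, fell in both clones, by 0.46 and 0.25 (limma adjusted p = 0.000763 and 0.0172).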

How the data were processed

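RNA-seq of 8 libraries was used, 2 in each of 4 groups set by the clone and state in the labels. The authors deposited TPM per gene, made from ribosome-depleted total RNA with TrimGalore 0.6.3 (trimming), STAR 2.7.9a (alignment to GRCh38.p13) and RSEM 1.3.1 (quantification on Gencode release 31). The methods state paired-end and the labels single-end reads. Depth is unknown from TPM.

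Entries that reached 1 TPM somewhere among the 8 libraries entered the fit (15614 of 60754). Library factors were trimmed means of log2 ratios (30% of ratios and 5% of means trimmed), and log2(scaled TPM + 1) was fitted in limma 3.58.1 (R 4.3.3) with an intensity trend, 1 model for the 4 groups, two-sided, Benjamini-Hochberg adjustment and a threshold of 0.05. Voom, which the study used, takes counts, so it was replaced by the trend. No covariate was used. Values in every library are given for members called within a clone, and of each other list (further glycolytic and pyruvate genes, further hypoxia-response genes, HIF pathway, pentose phosphate pathway, glucose-sensing genes) the largest 3 rises and 3 falls called in each clone are named, except 1 gene that is not reported here. The members and lists were chosen with earlier results of these data known. Copies of members were matched by the stem of their symbol. On simulated data for the C17.2 comparison, with 200 of 15614 genes changed by a log2 value of 1, the fit recovered 87.5%, and 5.41% of its calls were false. The changed genes were drawn from those with a mean log2 value above 1. In the real C17.2 comparison 27.3% of genes were called. The largest rise of an enzyme in log2(scaled TPM + 1) was 0.65, so these rates do not carry over to that comparison. Positions were read from Gencode release 44 (GRCh38), and promoters from RefSeq. Python 3.11.15, pandas 2.3.3, scipy 1.17.1 and matplotlib 3.10.9 were used. Alternatives were other scalings, pseudocounts, filters, a fit of each clone alone and leaving out each library.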

Additional observations from a re-analysis of the deposited data

Results flagged for a closer look

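The changes of 22 described genes differed between the clones by the limma contrast of the change in C17.2 minus that in C3.2. Over all genes tested, 9.96% were called in this contrast, 4.94% higher and 5.02% lower. The described genes were chosen with results of these data known, so their count is a description. It includes *VEGFA* and *NDUFA4L2*, whose differences are given with no test. Among the members the log2 difference was 1.13 for *ALDOC*, 0.84 for *ENO2*, 0.77 for *LDHA*, 0.53 for *BNIP3*, 0.50 for *TPI1*, 0.48 for *PGAM1*, 0.48 for *HK1*, 0.47 for *ENO1*, 0.44 for *PGK1*, 0.38 for *PKM* and -1.96 for *VEGFA*, which passed the filter on low values only through the C17.2 parental libraries, so that its difference is a description. For *PKM* the rise passed the test in both clones and was larger in C17.2.

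Among the other named genes, the falls of *STC2*, *VLDLR* and *TXNIP*, called in both clones, were deeper in C17.2 by differences of -0.89, -0.77 and -0.82 on the log2 scale, and the rise of *BPGM*, called in both, was larger there by 0.70. *NDUFA4L2*, which reached 1 TPM only in parental libraries, differed by -1.72, also as a description. *EPAS1*, *SLC6A6*, *FAM162A*, *ELOC* and *TALDO1*, called higher in C17.2 and not called in C3.2, differed by 0.94, 0.93, 0.89, 0.59 and 0.30. *KLF6*, called higher in C3.2 and not called in C17.2, differed by -0.52. The difference of *EPAS1* passed the test in 0 of the 8 fits that left out a library (limma adjusted p = 0.0508 to 0.134), and those of *FAM162A*, *KLF6* and *STC2* in 2 of 8 each.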

How the results depend on the processing

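In C17.2, 15 to 20 members were called under the other settings and 13 to 18 when a library was left out. In C3.2 the 7 calls became 2 on TPM as deposited, 1 with no filter on low TPM and 0 with each clone fitted alone, and 0 to 4 when a library was left out. The difference between the clones gave 8 to 11 calls under the other settings and 4 to 10 when a library was left out, and the parental groups 12 to 18 and 10 to 20. Over all genes, the fit of C3.2 alone called 77 against 1770, the fits that left out a library called 2376 to 4539 in C17.2 (4259 with all), 326 to 1789 in C3.2, 543 to 1740 in the difference (1555) and 1551 to 3810 between the parental groups (3512), and with no filter 1170 were called in C3.2. On TPM as deposited, 75.1% of the calls in C17.2 were higher, against 49.0% after scaling, 57.8% against 39.0% in C3.2, 64.0% against 49.6% in the difference and 19.0% against 52.8% between the parental groups.

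Under quantile normalization the difference between the parental groups turned to -0.0019 for *ALDOA* and -0.022 for *PKM*, both no longer called. The other values that changed sign had not passed the test. In C17.2 on TPM as deposited, *SLC16A1* was at 0.14, *PFKM* at 0.029, *PFKP* at 0.039, *LDHB* at 0.14, *HIF1A* at 0.040 and the named gene *MPC2* at 0.088, with a median of all genes of 0.13. Under quantile normalization *LDHB* was at 0.12 and the difference of *GAPDH* between the clones at -0.080. With a library left out, *SLC16A1* ranged from -0.0716 to 0.033, *EGLN1* from -0.046 to 0.11, *BNIP3L* from -0.10 to 0.16 and *NDRG1* from -0.087 to 0.33 in C17.2, and *EPAS1* from -0.19 to 0.086 in C3.2. The cause of these shifts was not tested. Where leaving out a library left a group with 1 sample, that sample was assumed to vary like the other groups. No paired analysis was possible because the replicate numbers follow the order of the samples and pair none. Depth is unknown, so low values, such as those of *EGLN3* and *ADM*, have no counting error.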

Other observations

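A pair of B-lineage markers fell more than any of the 17 glycolytic enzymes did. *IGLL1*, a surrogate light chain of the pre-B-cell receptor, went from 85.4 and 81.7 to 17.9 and 17.8 scaled TPM in C17.2 and from 160.0 and 179.9 to 30.7 and 34.2 in C3.2, by 2.16 and 2.35 on the log2 scale (limma adjusted p = 2.23e-05 and 0.000118). *CD79B*, a signaling chain of the B-cell receptor, went from 13.7 and 12.3 to 4.11 and 3.75 and from 17.17 and 16.6 to 7.47 and 8.08. Of the markers of other blood cells, 4 were tested, and 3 were called in C17.2 (1 higher, 2 lower) and 1 in C3.2 (lower). Over all genes tested, 13.4% were called higher and 13.9% lower in C17.2, and 4.43% and 6.91% in C3.2. *CSF1R*, a receptor of myeloid cells, fell by 0.65 in C17.2 (limma adjusted p = 0.0418). *LYZ*, also a myeloid marker, went the other way and was not called in either clone. Its mean was 0.487 scaled TPM in parental and 1.38 in resistant libraries of C17.2, and 0.624 and 1.91 in C3.2. *NKG7* rose by 0.51 in C17.2 and *TRAC* fell by 0.42 and 0.22 (limma adjusted p = 0.00673, 0.000657 and 0.0183). The genes named here were chosen from their lists after their values were seen.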
